A study of Mus musculus with 2 samples.

Results

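The secreted Wnt antagonists are extracellular proteins that limit signalling by Wnt ligands. The group described here consists of 10 genes, Sfrp1, Sfrp2, Sfrp4, Sfrp5, Frzb, Dkk1, Dkk2, Dkk3, Wif1 and Notum, taken by symbol from a table of 27376 genes, and all 10 were found. RNA of prostate tumour tissue was sequenced from mice aged 16 months, with 1 library from the genotype named Bcat_Only and 1 from the genotype named Met_Bcat. By these names Bcat_Only carries altered beta-catenin alone and Met_Bcat carries it together with MET, the receptor of hepatocyte growth factor. The column of the Bcat_Only library is headed Bcat_ex3Plus_PB_Cre, which points to an exon allele of beta-catenin and to Cre recombinase under PB. PB denotes the probasin promoter in the Cre lines used for mouse prostate, which is active in prostate epithelium. The heading of the Met_Bcat column names no allele, and neither the labels nor the headings say how MET was altered. Tissue was homogenised whole with no sorting of cells, so each library mixes RNA of epithelium, stroma and immune cells. With 1 library per genotype every difference below is a difference between 2 libraries, without replicates and therefore without a test of genotype, and each interval covers counting error only.

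Wnt ligands bind a Frizzled receptor together with the co-receptor LRP5 or LRP6, and the receptor complex stops the degradation of beta-catenin, which then activates target genes with TCF and LEF factors. The antagonists act outside the cell, upstream of beta-catenin, and in different ways. SFRP proteins and FRZB carry a cysteine-rich domain like that of Frizzled receptors and bind Wnt ligands, WIF1 binds Wnt ligands through a domain of its own, DKK1 and DKK2 bind LRP5 and LRP6, and NOTUM removes the lipid that Wnt ligands need for receptor binding. Several of them, among them Dkk1, Wif1 and Notum, are also known as target genes of beta-catenin in some tissues, and Sfrp1 has been described in prostatic stroma.

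The 2 libraries held 19301062 (Bcat_Only) and 20117724 (Met_Bcat) reads assigned to genes. Levels are CPM values, read counts relative to the library size, and library sizes were scaled by TMM, which aligns the bulk of genes between libraries. Ratios are those of Met_Bcat to Bcat_Only with a 95% exact interval. For a call of higher or lower, the whole interval had to lie at or beyond a 2-fold difference, and calls were made among the 14354 genes whose mean reached 1 CPM. Epithelial genes of the prostate were present in both libraries, with summed levels of 4223 and 6496 CPM over 14 luminal markers.

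The antagonists did not move as a group but split into a lower and a higher set. In Met_Bcat, Sfrp1, Sfrp4, Frzb and Dkk3 were lower, Dkk1, Sfrp5, Wif1 and Dkk2 were higher, and Sfrp2 and Notum were not called. Thus 4 of 10 members were called higher, where 4.42% of all genes tested were, and 4 of 10 were called lower, where 14.6% of all genes tested were. All 10 members passed the minimum of 1 CPM, which applies to the mean of both libraries. Dkk1, at 0.163 CPM in Bcat_Only, and Sfrp4, without a read in Met_Bcat, passed it only through the other library. The members were also not drawn at random, so these counts are a description. The median log2 ratio over the members, on the scale of CPM plus 0.5, was -0.16, beside 0.030 over all genes tested. A median near 0 here hides a wide spread, since the log2 ratios of the members ran from -10.01 for Sfrp1 to 5.69 for Dkk1, with Sfrp4 known only as a bound. By comparison the central quartiles of all genes tested were -0.57 and 0.34.

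**Figure D1:**
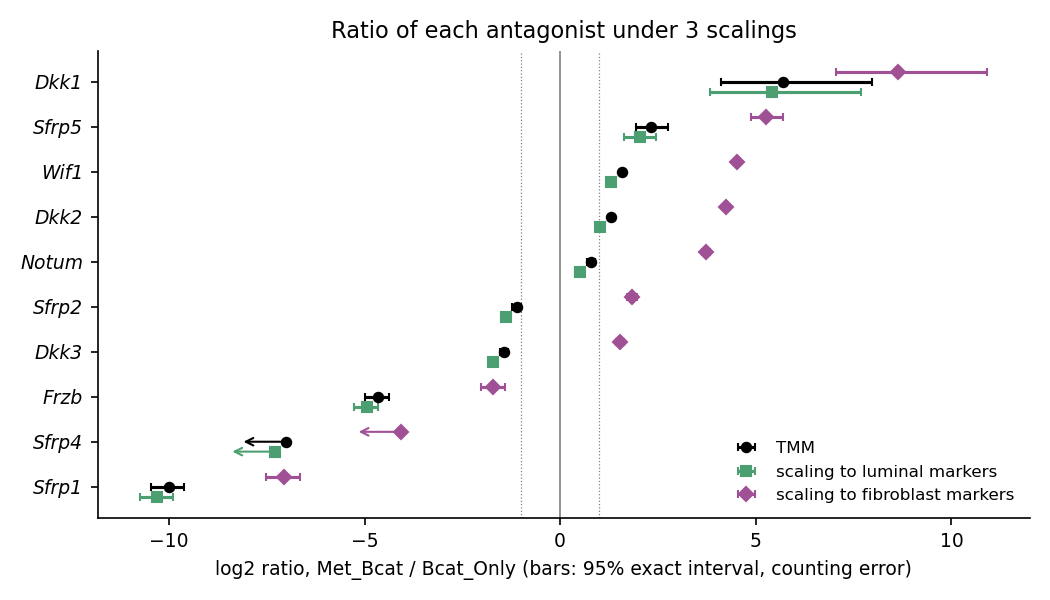
Log2 ratio of Met_Bcat to Bcat_Only for each antagonist (x axis), in order of the ratio, under TMM (black circles), under scaling to luminal markers (green squares) and under scaling to fibroblast markers (purple diamonds). Bars are 95% exact intervals of counting error, arrows mark bounds for the count of 0 of Sfrp4, and dotted lines mark 2-fold; Sfrp1, Sfrp4 and Frzb lie to the left of 0 under all 3 scalings, and Sfrp2 and Dkk3 move to the right of 0 under scaling to fibroblast markers.

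**Figure D2:**
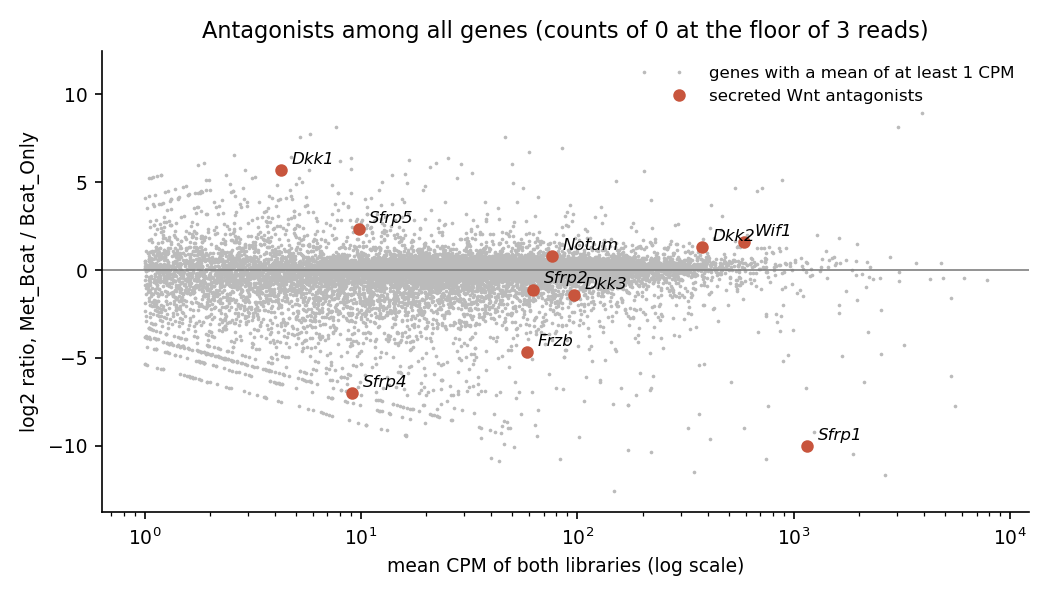
Log2 ratio of Met_Bcat to Bcat_Only (y axis) against the mean CPM of both libraries (x axis, log scale) for the 14354 genes tested (grey) and the 10 antagonists (red). Sfrp1 lies at the lower edge of the cloud among abundant genes and Dkk1 near its upper edge among weakly expressed genes.

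The 5 genes of the SFRP family, which bind Wnt ligands directly, held the largest decreases. Sfrp1 (ENSMUSG00000031548, mm9 chromosome 8, 24521974 to 24560104, plus strand) had 42486 reads in Bcat_Only and 47 in Met_Bcat, or 2306 and 2.23 CPM. This 1034-fold lower level (interval 777 to 1408) was exceeded by 11 of the 14354 genes tested, with counts of 0 at a floor of 3 reads. In Bcat_Only this single gene held 0.220% of all assigned reads (exact interval 0.218% to 0.222%), and in Met_Bcat 0.000234% (0.000172% to 0.000311%). Per kilobase of exon it ranked 60th of all genes in Bcat_Only and 13486th in Met_Bcat, so that an abundant transcript of one library was a trace in the other.

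Frzb, also named sFRP3 (ENSMUSG00000027004, chromosome 2, 80252127 to 80287782, minus strand), had 2082 reads in Bcat_Only and 94 in Met_Bcat. Its levels of 113 and 4.46 CPM differed 25.3-fold (20.6 to 31.5), the lower one in Met_Bcat. Sfrp4 (ENSMUSG00000021319, chromosome 13, 19714973 to 19724863, plus strand) had 336 reads in Bcat_Only, 18.2 CPM, and 0 in Met_Bcat. Set against a floor of 3 reads per library, worth 0.142 CPM in Met_Bcat, it was 128-fold lower. By the exact interval it was at least 103.6-fold lower. It was the one member without a read in a library.

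The other 2 members of the family were not called lower, though Sfrp2 lay on the same side of 1 as these 3. Sfrp2 (ENSMUSG00000027996, chromosome 3, 83570243 to 83578238, plus strand) had 1578 and 836 reads, or 85.7 and 39.7 CPM. It was 2.16-fold lower (1.98 to 2.35), just short of the size rule because the interval reached below 2-fold, and it was called lower under scaling to luminal markers, at 2.63-fold. Sfrp5 (ENSMUSG00000018822, chromosome 19, 42272461 to 42276742, minus strand) was the only family member that was higher in Met_Bcat, with 60 reads in Bcat_Only and 344 in Met_Bcat. Its levels were low, 3.26 and 16.3 CPM, and the difference was 5.01-fold (3.80 to 6.71). In sequence Sfrp1, Sfrp2 and Sfrp5 form one branch of the family, and Sfrp4 and Frzb another. Both members of the second branch were lower, while the first held Sfrp1 and the family's only ratio above 1.

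**Figure D3:**
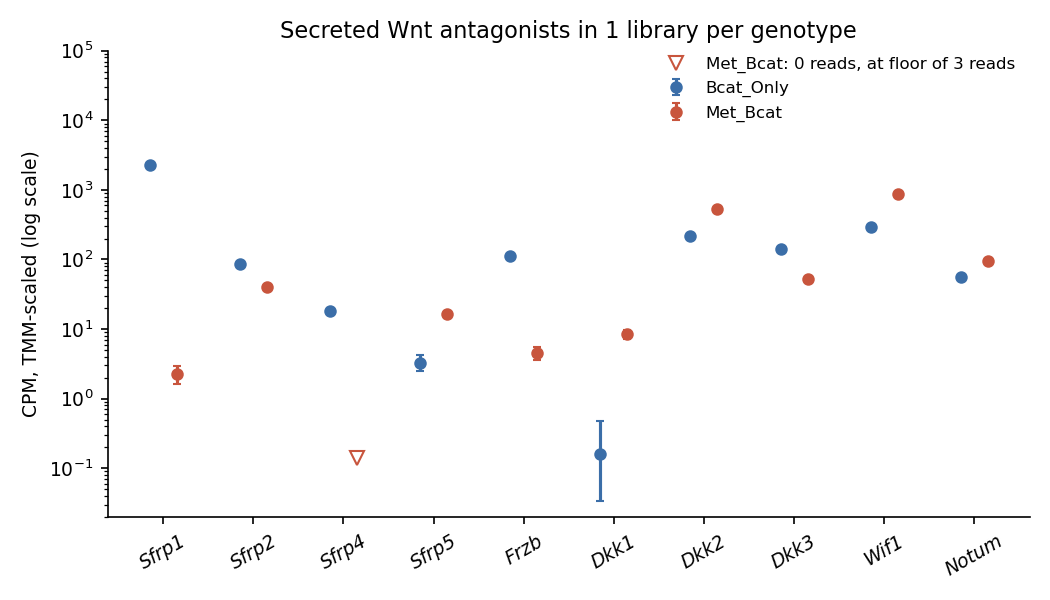
Level of each antagonist in Bcat_Only (blue) and Met_Bcat (red), as TMM-scaled CPM on a log axis, 1 library per genotype. Bars are 95% Poisson intervals of counting error, often smaller than the symbol, and the open triangle places the count of 0 of Sfrp4 at the floor of 0.142 CPM; the symbols of Sfrp1 lie farthest apart, at 2306 and 2.23 CPM.

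The DKK genes went both ways. Dkk1 (ENSMUSG00000024868, chromosome 19, 30620353 to 30624155, minus strand) had 3 reads in Bcat_Only and 177 in Met_Bcat, or 0.163 and 8.40 CPM. The ratio of 51.6 (17.4 to 252) has a wide interval because it rests on 3 reads in the lower library, and 24 genes tested had a higher ratio. The level in Met_Bcat was still modest, 9518th of all genes per kilobase of exon. Dkk2 (ENSMUSG00000028031, chromosome 3, 131748256 to 131843257, plus strand), which like Dkk1 binds LRP6 but can inhibit or weakly activate the pathway depending on the cell, had 3992 and 11287 reads. Its level was 217 CPM in Bcat_Only and 2.47-fold higher (2.38 to 2.56) in Met_Bcat, at 535 CPM, and at 2.03-fold it was no longer called under scaling to luminal markers. Dkk3 (ENSMUSG00000030772, chromosome 7, 119259533 to 119302571, minus strand), a divergent member of the family, had 2603 and 1110 reads, or 141 and 52.7 CPM. It was 2.68-fold lower in Met_Bcat (2.50 to 2.88). Kremen1, a transmembrane receptor that binds DKK1 and DKK2, had 104 and 128 CPM. Lrp5 had 142 CPM in each library and Lrp6 had 235 and 209 CPM, so that no co-receptor of the DKK proteins passed the size rule.

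Since Dkk1 had the highest ratio of the members and is a known target gene of beta-catenin, the 250 bases upstream of the start were searched for the TCF/LEF core. Upstream sequences were at hand from RefSeq for 6 of the 10 members, on build GRCm38.p6, which differs from the mm9 build of the count table. The motif searched, on both strands, was CTTTG followed by 2 bases that are each A or T, and no other motif was searched. Dkk1 (chr19:30549497-30549746, minus strand) is shown as the member with matches, Wif1 (chr10:121033754-121034003, plus strand) as the most abundant member in Met_Bcat, and Frzb (chr2:80447397-80447646, minus strand) as a member that was lower. Each is written 5′ to 3′ on the strand of the gene, and capitals mark the matches.
Dkk1: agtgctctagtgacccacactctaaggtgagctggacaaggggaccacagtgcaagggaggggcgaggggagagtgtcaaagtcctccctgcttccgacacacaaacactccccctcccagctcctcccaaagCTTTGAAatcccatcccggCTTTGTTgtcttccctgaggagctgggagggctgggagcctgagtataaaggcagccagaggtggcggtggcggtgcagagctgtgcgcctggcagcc
Wif1: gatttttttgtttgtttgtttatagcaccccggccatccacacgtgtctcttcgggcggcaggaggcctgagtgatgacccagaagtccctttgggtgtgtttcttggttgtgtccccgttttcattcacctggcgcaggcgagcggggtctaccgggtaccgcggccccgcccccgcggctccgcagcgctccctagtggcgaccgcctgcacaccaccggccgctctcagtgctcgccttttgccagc
Frzb: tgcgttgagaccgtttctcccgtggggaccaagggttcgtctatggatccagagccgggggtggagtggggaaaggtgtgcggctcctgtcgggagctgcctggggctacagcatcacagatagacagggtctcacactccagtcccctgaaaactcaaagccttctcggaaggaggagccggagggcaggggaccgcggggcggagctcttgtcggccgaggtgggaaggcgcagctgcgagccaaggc
The Dkk1 sequence held 2 matches on the strand of the gene, CTTTGAA from 117 to 111 bases and CTTTGTT from 98 to 92 bases before the start. The other 5 sequences, those of Wif1, Frzb, Sfrp2, Sfrp5 and Dkk2, held none of these letters in this window. Of 27025 genes with an upstream sequence, 14.9% held at least 1 match and 1.48% held 2 or more. Among 13 other beta-catenin target genes with a sequence, 1 held a match. A match is a description of letters and not a shown binding site.

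Wif1 and Notum act on the ligand, and Wif1 was the more abundant of them in both libraries. Wif1 (ENSMUSG00000020218, chromosome 10, 120471016 to 120537706, plus strand) had 5409 reads in Bcat_Only and 18543 in Met_Bcat, or 294 and 880 CPM. It was 3.0-fold higher in Met_Bcat (2.91 to 3.09), where it ranked 73rd of all genes per kilobase of exon against 343rd in Bcat_Only. Notum (ENSMUSG00000042988, chromosome 11, 120515102 to 120522489, minus strand) had 1030 and 2029 reads, or 55.9 and 96.3 CPM. Its ratio of 1.72 (1.60 to 1.86) lay above 1 but below the size rule, as did that of Axin2, a feedback gene of the pathway, at 1.32 (1.28 to 1.36). For Notum 2 genes on the opposite strand overlap the locus, and 4732444A12Rik, the more abundant of them, had 64 and 143 reads. Sfrp2 is overlapped by Gm16790, with 4 and 9 reads. The strand setting of the counting is not known, and the remaining 8 members have no overlapping gene in the table.

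The make-up of the antagonist pool differed more between the libraries than its size. To compare genes with one another, CPM was divided by the deposited exon length of each gene. The sum over the 10 members was 853 CPM per kilobase in Bcat_Only and 596 in Met_Bcat. In Bcat_Only Sfrp1 supplied 61.8% of this sum, Wif1 14.2% and Dkk2 6.87%. In Met_Bcat Wif1 supplied 60.9%, Dkk2 24.3%, Notum 6.71% and Sfrp1 0.0857%. The SFRP genes and Frzb together made up 71.3% of the sum in Bcat_Only and 4.85% in Met_Bcat. Without Sfrp1 the sum over the other 9 genes was higher in Met_Bcat, at 595 against 326 CPM per kilobase, so the direction of the sum rests on that gene.

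The order of the levels per kilobase in Bcat_Only was Sfrp1, Wif1, Dkk2, Dkk3, Sfrp2, Frzb, Notum, Sfrp4, Sfrp5 and Dkk1. Dkk3, at 42.1 CPM per kilobase (40.5 to 43.7), and Sfrp2, at 39.8 (37.8 to 41.8), did not differ beyond counting error, and the other neighbours in this order did. In Met_Bcat the order was Wif1, Dkk2, Notum, Sfrp2, Dkk3, Sfrp5, Dkk1, Frzb, Sfrp1 and Sfrp4. There the intervals of no neighbours overlapped. Closest in proportion were those of Sfrp2 at 18.4 (17.2 to 19.7) and Dkk3 at 15.7 CPM per kilobase (14.8 to 16.6). Near the low end stood Frzb at 1.38 (1.11 to 1.69) and Sfrp1 at 0.510 CPM per kilobase (0.375 to 0.678). Wif1 and Dkk2 were among the first 3 members in both libraries.

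**Figure D4:**
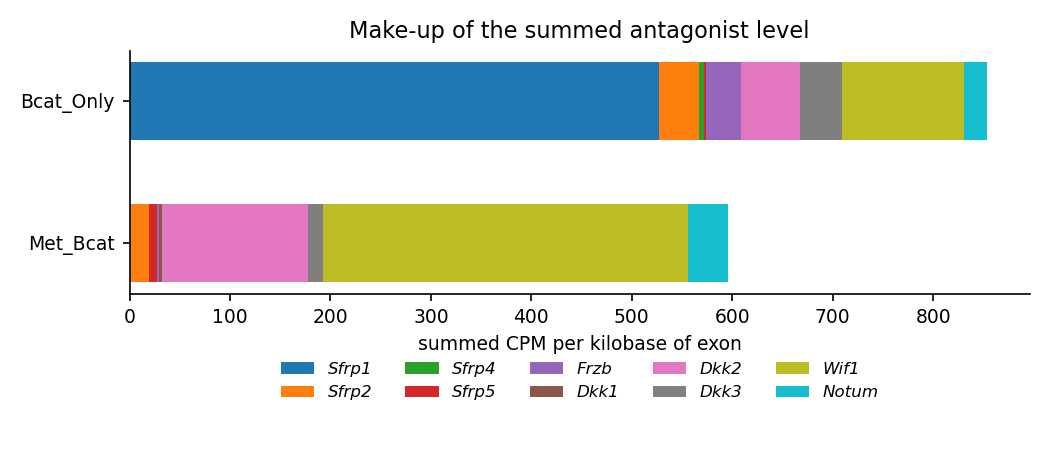
Summed level of the 10 antagonists in CPM per kilobase of exon (x axis) in each library, with 1 coloured segment per gene. The Bcat_Only bar reaches 853 and is mostly Sfrp1, and the Met_Bcat bar reaches 596 and is mostly Wif1 and Dkk2.

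Markers of stromal cells moved with the lower members, in lists chosen with earlier results of these data known. Among all genes tested, 14.6% were called lower and 4.42% higher. Of 15 fibroblast markers 13 were called lower and 0 higher in Met_Bcat, with summed levels of 24910 and 1355 CPM and none of them at 0 reads, and their decreases ran from 2.04-fold for Col6a1 to 84.3-fold for Col1a2. All 10 smooth muscle markers were called lower (summed 679 and 80.1 CPM), with the contractile genes Cnn1 at 57.0-fold, Actg2 at 32.5-fold and Tagln at 31.0-fold. In whole tissue fewer cells of a type and less RNA per cell cannot be told apart. The decrease of Sfrp1 and the bound for Sfrp4 were larger than the decrease of any of these fibroblast and smooth muscle markers, that of Frzb lay within their range, and that of Dkk3 lay near its lower end. The epithelial markers were not lower as groups. Of 14 luminal markers 4 were called higher and 2 lower (median log2 ratio 0.28), with Hoxb13, a homeobox gene of prostate epithelium, 5.69-fold higher, and the surface protein gene Prom1 and the claudin gene Cldn7 3.48-fold and 2.20-fold lower. Of 10 basal markers 4 were called higher and 1 lower (median 0.88), with Krt15 10.9-fold lower and Krt14 and Krt5 5.46-fold and 4.85-fold higher.

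Other cell types also differed between the libraries. All 5 measured seminal vesicle secretory genes were called lower, with summed levels of 6176 and 4.51 CPM, and 3 of the 6 genes found (Svs1, Svs3a and Svs6) at 0 reads in Met_Bcat. With counts of 0 at the floor, the decreases of the 5 measured genes ran from 294-fold to 1735-fold, beside 1034-fold for Sfrp1. Of 13 leukocyte markers 11 were called lower (summed 4658 and 254 CPM), led by the myeloperoxidase gene Mpo. Mpo had 1886 reads against 2, a 1079-fold lower level. Of 10 endothelial markers 7 were called lower (700 and 365 CPM), of 4 measured adipocyte markers 3 (111 and 26.8 CPM over 6 genes, with Plin1, Cfd and Lep at 0 in Met_Bcat and Lep also at 0 in Bcat_Only), and of 7 measured Schwann cell and nerve markers 5 (421 and 148 CPM). At the floor the adipocyte marker Cfd was 220-fold lower, beside 128-fold for Sfrp4. The part of these cell types in the differences of the antagonists was not tested.

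Expressed relative to the fibroblast markers, 7 of the 10 members were higher and 3 lower, where 87.4% of all genes tested were higher and 2.53% lower. When the median ratio of the 15 fibroblast markers is set to 0, each log2 ratio is raised by 2.94. On this scale Sfrp1 was still 134-fold lower in Met_Bcat (101 to 183) and Frzb 3.29-fold lower (2.68 to 4.09). Sfrp4 was 16.6-fold lower at the floor and at least 13.46-fold lower by its interval. Sfrp2 and Dkk3, which were below 1 under TMM, became 3.56-fold (3.27 to 3.88) and 2.87-fold higher (2.67 to 3.08). Wif1 and Dkk2 were 23.1-fold and 19.0-fold higher, Notum 13.3-fold and Sfrp5 38.6-fold higher. Dkk1 had the largest ratio on this scale, 397 (134 to 1944). The same 2.94 is added for every gene, and the 7 higher members do not exceed the share over all genes tested. The single fibroblast markers spread over log2 ratios from -6.40 to -1.03, so the scale depends on the markers chosen.

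**Figure D5:**
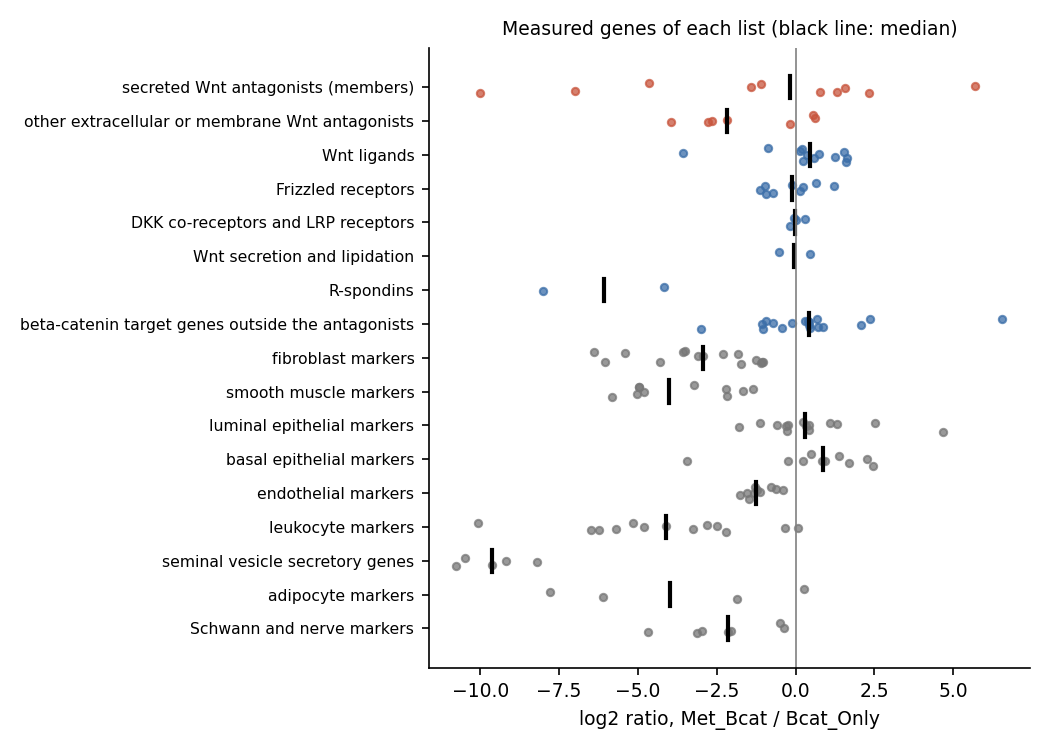
Log2 ratio of Met_Bcat to Bcat_Only (x axis) for each measured gene in the lists named on the y axis, for antagonists (red), other genes of the Wnt pathway (blue) and cell type markers (grey). Black lines are medians, counts of 0 are placed at the floor of 3 reads, and vertical scatter within a row only separates the points; the antagonists cover the widest range of these lists, from -10.01 to 5.69, around a median near 0.

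The other inhibitors of the pathway that reached the minimum of 1 CPM were called lower or not called. Of 11 further antagonist genes, secreted or at the membrane, 7 were measured, of which 0 were called higher and 4 lower, with a median log2 ratio of -2.03 on the scale of CPM plus 0.5. Igfbp4, which encodes a binding protein of insulin-like growth factors that also antagonises Wnt signalling, had 1504 CPM in Bcat_Only and 241 in Met_Bcat, 6.23-fold lower. Draxin, a secreted guidance protein that binds LRP6, was 15.6-fold lower with 136 and 10 reads, and Trabd2b, which encodes a membrane protease that cleaves Wnt ligands, was 6.81-fold lower. These are listed in the table under the older names 2610109H07Rik and Gm12824. Dkkl1, a relative of the DKK genes, was 4.54-fold lower. The membrane inhibitors Apcdd1, Znrf3 and Rnf43, which are also target genes of beta-catenin, had ratios of 1.55, 1.47 and 0.881, none of them called. Dkk4, a close relative of Dkk1, lay below the minimum of 1 CPM, with 1 and 23 reads, the higher count in Met_Bcat, and a ratio of 20.1 (3.27 to 828).

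The Wnt ligand genes were mostly at similar or higher levels in Met_Bcat. Of 12 measured Wnt genes 2 were called higher and 1 lower, with a median log2 ratio of 0.45. Wnt4 had 82.8 and 241 CPM, 2.91-fold higher (2.75 to 3.08), and Wnt10a had 7.44 and 23.3 CPM, 3.13-fold higher. Wnt9a was 11.9-fold lower, with 104 and 10 reads. Wnt2b lay below the minimum of 1 CPM, with 32 and 1 reads, the lower count in Met_Bcat. Summed over the 19 Wnt genes found, the level per kilobase was 75.7 CPM in Bcat_Only and 129 in Met_Bcat. The antagonist sum was thus 11.3 times the ligand sum in Bcat_Only and 4.64 times in Met_Bcat. Without Sfrp1 these quotients were 4.30 and 4.63, so the antagonist and ligand transcripts other than Sfrp1 stood in nearly the same proportion in both libraries. The quotient compares RNA levels of genes with unlike protein functions.

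Receptors and secretion factors passed the size rule in neither direction. Of 9 measured Frizzled genes 0 were called higher and 0 lower, with Fzd10 at 2.33-fold higher (1.99 to 2.75) and Fzd4 at 2.20-fold lower (1.88 to 2.58) as the farthest. Wls, which carries Wnt ligands to the cell surface, had a ratio of 1.37, and Porcn, which attaches their lipid, 0.689. The R-spondins, secreted agonists that raise the number of Wnt receptors, were lower where they were measured. Rspo3 had 451 and 2 reads, a 258-fold lower level in Met_Bcat (71.0 to 2137). Rspo1 had 220 and 14 reads and was 18.0-fold lower (10.5 to 33.4). Of 18 measured beta-catenin target genes outside the antagonists 3 were called higher and 2 lower, with a median log2 ratio of 0.41. Lef1, which encodes a DNA-binding partner of beta-catenin, was 5.14-fold and Bambi 4.17-fold higher. Ephb2, a guidance receptor, was 7.97-fold and Cd44 2.11-fold lower. Ascl2 lay below the minimum of 1 CPM, with 24 and 1 reads, the lower count in Met_Bcat. Fgf20 had 1 and 108 reads, the higher count in Met_Bcat, at a ratio of 94.4 (16.6 to 3763).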

How the data were processed

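Total RNA of homogenised prostate tumour tissue entered a stranded mRNA library kit and was sequenced as single-end reads, per the labels' protocols. The deposited table holds raw read counts per gene, not normalised, with Ensembl identifiers, symbols, mm9 coordinates and total exon length. TopHat2 version 2, HTSeq, edgeR and mm9 are named in the submitters' processing notes. Settings for alignment, counting and strand were not given in the sources used here. Each count column was matched to its sample by the sample number in its heading.

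From the counts, TMM factors were computed (edgeR 4.0.16 in R 4.3.3; 0.955 for Bcat_Only and 1.05 for Met_Bcat), and ratios with exact Clopper-Pearson intervals, conditional on the summed reads of a gene, with scipy 1.17.1. Because PCR copies carry no molecular identifiers, reads do not equal molecules, and intervals and floors cover counting error only. A count of 0 was set to a floor of 3 reads, worth 0.163 CPM in Bcat_Only. The text names all 10 members, every called gene of the list of other antagonists, and members of the other lists (up to 4 per pathway list and 3 per cell type list) ranked by the nearer interval end. Bambi, Cd44, Cldn7, Col6a1, Rnf43, Apcdd1, Znrf3 and Dkk4 were added as context after their values were seen. The members and the 17 lists (172 symbols, 3 of them matched through the reference's gene names) were chosen with earlier results of these data known. Alternatives were 5 other scalings, with DESeq2 1.42.0 for one of them, 2 other filters, 2 other size rules and 2 other pseudocounts. The interval procedure was tested on simulated Poisson counts. These hold counting error only, so the test cannot show whether the intervals cover variation between animals. A gene that the naming rule would include is not reported here.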

Additional observations from a re-analysis of the deposited data

How the results depend on the processing

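Counts of members called were 4 higher and 4 lower under total counts, DESeq2 size factors, upper-quartile factors and no minimum expression. A 2-fold rule on the ratio itself gave 4 higher and 5 lower members (916 and 2579 of all genes). Luminal scaling gave 3 and 5 (476 and 2564 genes). With 1 library per genotype no replicate could be left out, and no paired analysis was possible because each genotype has 1 library. Scaling to fibroblast markers gave 7 higher members, and 12546 higher and 363 lower genes of all tested, and turned Sfrp2 and Dkk3 to log2 ratios of 1.83 and 1.52, the median to 2.77 and the summed level to 2.43. This follows from the shift of 2.94 that the scaling adds to each log2 ratio. A minimum of 10 CPM left 2 higher members (356 higher and 1226 lower genes, median -1.10), since Dkk1, Sfrp5 and Sfrp4 fall below it, and the 4-fold rule left 1 (251 and 1086 genes). Total counts add 0.13 to each log2 ratio and luminal scaling moves it by -0.28, which put the median at -0.028 and -0.44. The log2 ratio of the summed level, -0.52 as reported, was -0.38 under total counts, -0.45 under upper-quartile factors and -0.80 under luminal scaling. Without Sfrp1 the median was 0.78 and the summed level 0.87, both reversed. For the median this is not particular to Sfrp1. With 10 members it lies midway between Sfrp2 and Notum, and leaving out any 1 member below 0 gives the value of Notum. Depth limits Dkk1 and Sfrp4, with 3 and 0 reads in 1 library.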

Other observations

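The genes most like Sfrp1 and Dkk1 in ratio and mean level, by distance over these 2 values in 2 libraries, were of other kinds. Nearest to Sfrp1 were the immunoglobulin genes Ighg2c and Ighg2b, 601-fold and 504-fold lower in Met_Bcat, and the seminal vesicle genes Svs4 and Svs5, 1436-fold and 1735-fold lower. Nearest to Dkk1 was Ang6, an angiogenin gene, with 4 and 238 reads, followed by Slco1b2 (5 and 213 reads), Abhd12b (2 and 121) and Rbfox1 (6 and 218). A likeness over 2 libraries is a single ratio and cannot separate genes that differ together from genes that differ for unlike reasons.

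Most genes next to the antagonists on mm9 were not called, and those called mostly, but not always, had the direction of the member. Of the 20 nearest measured genes on either side, 2 were called higher and 6 lower, with a median log2 ratio of 0.17. Among all genes tested, 4.42% were called higher and 14.6% lower. The neighbours of Sfrp4, Epdr1 at 3.3 kb and Gpr141 at 116.7 kb, were both lower, with log2 ratios of -2.53 and -2.44. Also lower were 1810011O10Rik, 988.0 kb from Sfrp1 (-1.52), Tlr2, 62.0 kb from Sfrp2 (-1.74), and Mical2, 66.8 kb from Dkk3 (-1.42). Their ratios lay on the same side of 0 as those of these members, of which Sfrp2 was not called. Pycr1, at 10.0 kb from Notum, was higher (1.25), and the ratio of Notum, itself not called, was above 1. Prkg1, at 19.6 kb from Dkk1, was lower with a log2 ratio of -1.78, while Dkk1 was higher. Dnajc10, at 57.9 kb from Frzb, was higher with a log2 ratio of 1.26, while Frzb was lower. Both neighbours of Wif1, Lemd3 and Tbc1d30, had log2 ratios of 0.19 and were not called.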
